A study of Drosophila melanogaster with 11 samples.

Results

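The 8 homeotic genes of Drosophila melanogaster, lab, pb, Dfd, Scr, Antp, Ubx, abd-A and Abd-B, were followed by RNA-seq in embryos at zygotic genome activation (ZGA) and in unfertilized eggs. They are the 8 rows, of 17753 in the count table, whose gene identifier maps to these symbols, and 13618 of the 17753 genes had a count in any library. The study asked what the histone variant H2A.Z and Domino, the remodeller that places it on chromatin, do at ZGA. The tested embryos are 4 DomKD libraries (genotype label t216), from mothers whose germline expressed a hairpin RNA against both isoforms of domino (dom) under the mat-alpha-Gal4 driver. They were set against 3 libraries of Ctrl embryos from mothers of a control hairpin line (t180). Both kinds of embryo were at stage 5, when the blastoderm forms cells, and a further 4 libraries came from unfertilized Ctrl eggs, which hold only maternal RNA. The knockdown is maternal, so domino supplied by the embryo's own genome is not under the driver, no eggs of DomKD mothers were analysed here, and how many embryos went into a library is not given in the sources used here.

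Homeotic genes encode homeodomain transcription factors that give each body segment its identity. In the fly they lie in a pair of clusters on chromosome 3R, the Antennapedia complex for head and anterior thorax and the bithorax complex for posterior thorax and abdomen, and they are arranged along the chromosome in the order in which they act along the body, from head to tail. Their transcription begins in the blastoderm under maternal and gap regulators, and proteins of the Polycomb and Trithorax groups later keep each gene off or on. In dm6 coordinates the Antennapedia complex, taken from lab to Antp, spanned 337.8 kb (chr3R:6661427-6999228), and the bithorax complex, from Ubx to Abd-B, spanned 315.6 kb (chr3R:16656623-16972236), 9.66 Mb away. Dfd alone of the 8 lies on the plus strand. The genes differ in length, with spans from 10.6 kb for Dfd and 17.2 kb for lab to 77.8 kb for Ubx and 103 kb for Antp. No exon of a homeotic gene overlapped an exon of another gene in the count table.

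The 4 DomKD libraries held 11809453 to 15712506 counts on genes, the 3 Ctrl embryo libraries 12642275 to 16310645 and the 4 egg libraries 15387133 to 17700171. The target of the knockdown, dom, had 75.8 ± 21.0 CPM (counts per 1000000, scaled to the TMM-normalized library size) in DomKD embryos and 1910 ± 65.9 CPM in Ctrl embryos (SD, n = 4 and 3), a log2 fold change of -4.66. Of the 7727 genes tested between the embryos, 15.5% were lower and 10.6% higher in DomKD at an adjusted p under 0.05 (edgeR's quasi-likelihood test, Benjamini-Hochberg adjustment), so 59.3% of the calls were decreases. That share was 71.9% with library size alone and 45.4% when the scaling rested on genes without maternal deposit. These are the genes that do not meet the rule for eggs given below, and some of them still had counts in eggs. Under this scaling the median log2 fold change of all genes was 0.182, against 0.00278 in the main scaling. Zygotic markers of cellularization (8 genes) summed to 4680 to 6580 TPM (transcripts per 1000000, by exon length) in DomKD and 3450 to 5250 TPM in Ctrl embryos, with 2 of 7 tested genes higher and 0 lower by edgeR, 5 higher and 0 lower at an unadjusted p under 0.05, and 5 higher and 0 lower by DESeq2. The 2 called by edgeR, bnk and halo, each missed the threshold when any 1 of 5 of the 7 libraries was left out, and both did without Ctrl replicate 2 (adjusted p = 0.101 and 0.0736) or DomKD replicate 1, 2 or 3. Among these markers Sry-alpha was at 0 in every library. It shares 3300 nt of exon with Sry-beta, a counted gene on the same strand, so its reads may not have been counted, and the 0 does not show that it was silent. Markers of differentiated tissues (14 genes) summed to 0.89 to 1.94 TPM in DomKD and 1.90 to 2.43 TPM in Ctrl embryos, with no count above 32 and 1 of 2 tested lower. Markers of the ovary's follicle cells (12 genes) had at most 10 counts. The part of these markers in the results below was not tested.

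Homeotic transcripts were found in embryos and hardly at all in eggs. Each of pb, Dfd, Scr, Antp, Ubx, abd-A and Abd-B had 0 counts in all 4 egg libraries, and lab had a single count in egg replicate 3. No homeotic gene therefore met the study's rule for maternal deposit, over 5 TPM in at least 3 egg libraries. Taking 3 counts per library as the most that a count of 0 allows (0.179 CPM, counting error only), Antp was at least 31.0-fold higher in DomKD embryos and at least 94.3-fold higher in Ctrl embryos than in eggs. For abd-A these bounds were 25.3-fold in DomKD and 27.3-fold in Ctrl embryos, for Dfd 14.6-fold in DomKD and 38.4-fold in Ctrl embryos, and for Ubx 10.5-fold in DomKD and 24.0-fold in Ctrl embryos. The bounds of Scr, Abd-B and pb were lower, from 2.40-fold to 3.92-fold in DomKD and from 2.98-fold to 8.28-fold in Ctrl embryos. Antp, abd-A, Dfd and Ubx were also the 4 of 8 that passed the count filter against eggs, and all 4 were called higher in DomKD and in Ctrl embryos. Having no counts in eggs, they passed the filter through the embryos and had to differ. Over all genes 47.2% were called higher in DomKD and 46.6% in Ctrl embryos, each against the same eggs.

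Levels can be compared between genes per length of exon, in TPM. By mean TPM the order in DomKD embryos was Dfd (1.79 TPM), abd-A (1.54), Antp (1.39), Ubx (0.815), pb (0.351), Scr (0.178), Abd-B (0.069) and lab (0.0476). In Ctrl embryos it was Dfd (4.99 TPM), Antp (4.48), Ubx (1.99), abd-A (1.77), Scr (0.603), pb (0.283), Abd-B (0.251) and lab (0.185). Neighbours in these orders mostly overlapped between libraries. In DomKD only Scr and Abd-B stood apart, with every Scr value above every Abd-B value, whereas in Ctrl embryos the gaps between Antp and Ubx, abd-A and Scr, and Scr and pb were without overlap. Level did not follow position along the complexes closely. Spearman's rho of chromosomal order, from lab to Abd-B, with mean TPM was 0.190 in DomKD and 0.167 in Ctrl embryos over the 8 genes, which share their libraries. With CPM, which is not corrected for length, the value in Ctrl embryos was 0.476.

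**Figure D1:**
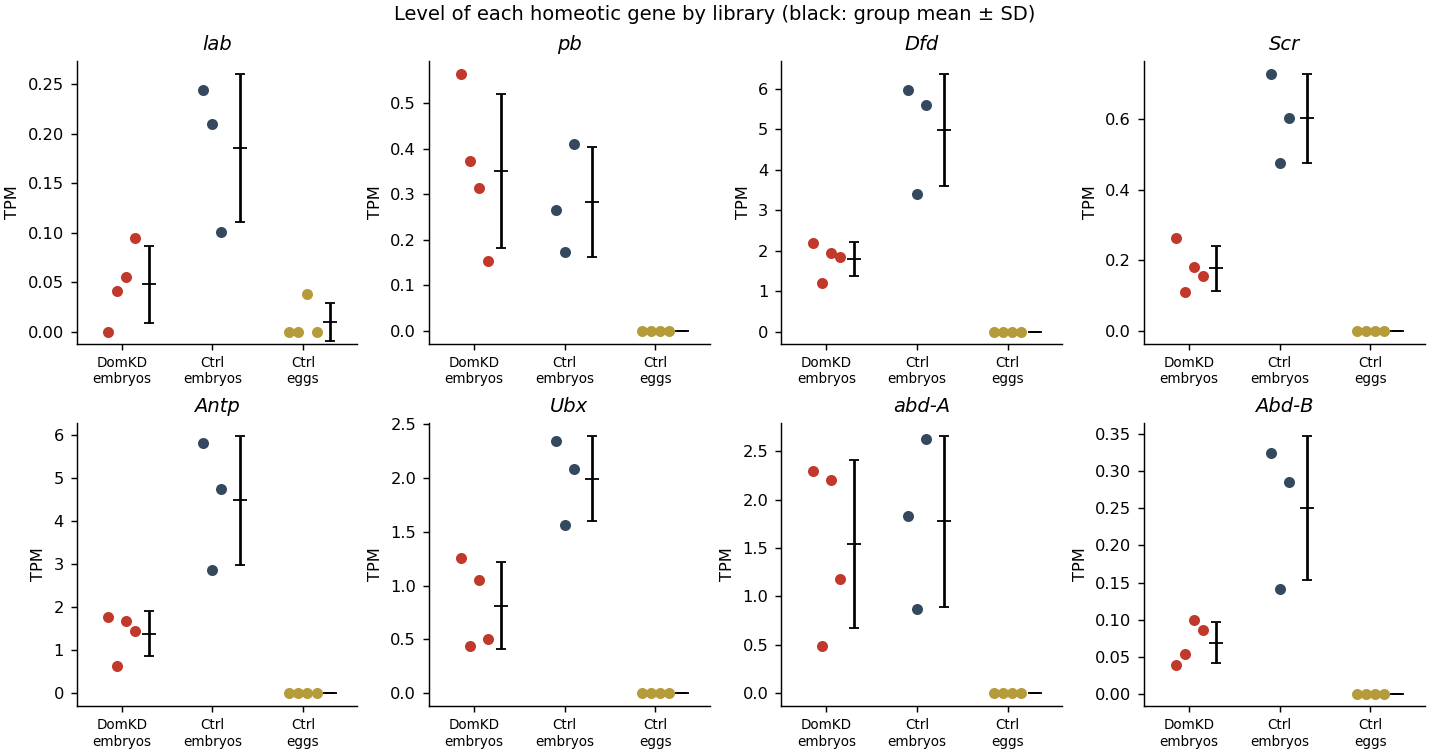
Level of each homeotic gene in TPM, 1 panel per gene with its own axis from 0, in DomKD embryos (4 libraries), Ctrl embryos (3) and Ctrl eggs (4); each point is a library and the black bar is the group mean ± SD. All DomKD points lie below all Ctrl embryo points for lab, Dfd, Scr, Antp, Ubx and Abd-B but not for pb and abd-A, and eggs are at 0 except for 1 library of lab. In CPM, 18.7% of all genes tested were separated in this way, and lab had too few counts to be tested.

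Upon DomKD, 5 of the 8 homeotic genes were lower at ZGA: Dfd, Scr and Antp of the Antennapedia complex and Ubx and Abd-B of the bithorax complex. The fitted levels of these 5 were between 2.36-fold (Ubx) and 3.47-fold (Abd-B) lower in DomKD than in Ctrl embryos. The abdominal gene abd-A overlapped between the groups, and the anterior genes lab and pb had too few counts for the filter of a mean of 10 counts. Of the 6 tested, 5 were thus lower and 0 higher (0 at an unadjusted p under 0.05 and 0 by DESeq2, which called the same number lower). Over all genes tested 15.5% were lower, and among the 1453 tested genes without maternal deposit, the class to which every homeotic gene belongs, 25.4% were lower. The median log2 fold change of the 6 tested was -1.52, against -0.157 over the 1453 genes and 0.00278 over all genes. Scr and Abd-B passed the filter through the Ctrl embryos alone, since their DomKD counts were all under 10. Genes that pass in this way are bound to look lower, and the 5 of 6 and the median of -1.52 include them. Of the other genes tested, Dfd, Antp and Ubx were lower and abd-A was not (log2 fold changes of -1.41, -1.64, -1.24 and -0.14). Without Ctrl replicate 2, Scr and Abd-B fell below the filter and Ubx missed the threshold. This left Dfd and Antp, 2 of 4 tested, as lower, whereas leaving out any other library left 4 or 5 of 6. In whole embryos, fewer cells that express a gene and less RNA per cell cannot be told apart.

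The first genes in order act in the head. lab, which acts in the intercalary segment of the head and in the midgut, had 0, 1, 1 and 2 counts in DomKD replicates 1 to 4, against 6, 5 and 2 counts in Ctrl replicates 2 to 4. After scaling, each DomKD library lay below each Ctrl library, the closest being 0.146 CPM in DomKD and 0.156 CPM in Ctrl embryos. The ratio of summed counts was 0.261, with a 95% counting interval of 0.062 to 0.844, and in a fit without the filter the log2 fold change of lab was -1.78 (SE 0.78, adjusted p = 0.135), short of the threshold. pb, which acts in the mouthparts, had 14, 11, 7 and 4 counts in DomKD and 8, 5 and 10 counts in Ctrl embryos. These overlap, with a ratio of 1.33 (0.765 to 2.35) and, without the filter, a log2 fold change of 0.42 (SE 0.49, adjusted p = 0.565), and a change of either sign within this interval was not detectable at this depth.

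Dfd, which specifies the mandibular and maxillary segments, had 3.26, 1.69, 2.80 and 2.56 CPM in DomKD replicates 1 to 4, against 7.79, 4.90 and 7.79 CPM in Ctrl replicates 2 to 4. All DomKD libraries were below all Ctrl libraries, as for 18.7% of all genes tested. Dfd fell by 1.41 on the log2 scale (SE 0.25, adjusted p = 0.00368). Scr, which specifies the labial segment and the first thoracic segment, had 0.651, 0.261, 0.438 and 0.366 CPM in DomKD, against 1.59, 1.14 and 1.40 CPM in Ctrl embryos. These rest on 22 counts in the DomKD and 62 counts in the Ctrl libraries together. The groups were again apart, and Scr fell by 1.70 (SE 0.34, adjusted p = 0.00602).

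Antp, the gene of the thoracic segments whose gain in the head turns antennae into legs, had the most counts of the 8. Its level was 7.25, 2.48, 6.66 and 5.49 CPM in DomKD, against 20.9, 11.3 and 18.2 CPM in Ctrl embryos. DomKD replicate 2 and Ctrl replicate 3 were the lowest of their groups, and the groups did not overlap. Antp fell by 1.64 (SE 0.32, adjusted p = 0.00561). In the newer annotation used for positions, Antp shares 3978 nt of exon with CG46458, which is not in the count table, so reads of that gene may be counted in Antp.

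Ubx, which sets the third thoracic segment and the first abdominal segment apart, had 2.93, 0.977, 2.36 and 1.10 CPM in DomKD, against 4.78, 3.49 and 4.52 CPM in Ctrl embryos. The DomKD values spread widely but stayed below every Ctrl value. Ubx fell by 1.24 (SE 0.36, adjusted p = 0.0297), the weakest of the 5 calls. It did not pass the threshold when DomKD replicate 2 (adjusted p = 0.0714), DomKD replicate 4 (0.0624), Ctrl replicate 2 (0.0793) or Ctrl replicate 4 (0.0838) was left out, in edgeR's test, over a range of log2 fold changes from -1.59 to -1.01 across the 14 alternatives.

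abd-A, which specifies most abdominal segments, had 6.84, 1.37, 6.30 and 3.29 CPM in DomKD, against 4.78, 2.48 and 7.32 CPM in Ctrl embryos. The groups overlapped fully: the lowest and the second highest of the 7 values were DomKD libraries. The log2 fold change was -0.14 (SE 0.50, adjusted p = 0.858), and the 95% interval of the fold ran from 0.459 to 1.79. The fitted folds of the 5 lower genes, 0.289 to 0.424, lie below this interval, with Ubx (0.424) the closest to its limit. The interval rests on a normal approximation, which is too narrow with so few libraries, and a wider one may take in Ubx. The 95% intervals of the 5 genes themselves all overlap that of abd-A, with upper limits from 0.489 for Scr to 0.687 for Ubx. The difference between abd-A and each of them was not tested. The sign of abd-A depended on the scaling, since it was 0.0212 when scaled on genes without maternal deposit, below the median of 0.182 that this scaling gives all genes, and it was 0.177 without DomKD replicate 2 and 0.259 without Ctrl replicate 4. Abd-B, which specifies the last abdominal segments and the genitalia, had 3, 5, 7 and 7 counts in DomKD and 31, 13 and 22 counts in Ctrl embryos. In scaled values these are 0.244, 0.326, 0.613 and 0.513 CPM in DomKD, against 1.83, 0.872 and 1.71 CPM in Ctrl embryos, with no overlap. Abd-B fell by 1.79 (SE 0.40, adjusted p = 0.00963).

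The size of the change showed no clear order along the chromosome, over too few genes to tell that there is none. Spearman's rho of chromosomal order with the log2 fold change was -0.0286 over the 6 genes tested and 0.0714 over all 8 without the filter, and that of gene span with the log2 fold change was -0.257 over 6 genes. Decreases were called in both complexes, from Dfd, the third gene in order, to Abd-B, the last, with abd-A between Ubx and Abd-B. The order of mean levels itself was largely kept, with a rho of 0.905 between DomKD and Ctrl embryos.

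The summed level of the 8 genes was 8.41, 3.33, 7.54 and 5.45 TPM in DomKD replicates 1 to 4, against 17.5, 9.70 and 16.5 TPM in Ctrl replicates 2 to 4. Every DomKD sum was below every Ctrl sum. Within the sum, abd-A held 27.4%, 14.5%, 29.1% and 21.7% in DomKD, against 10.4%, 8.92% and 16.0% in Ctrl embryos. The ranges overlap through DomKD replicate 2, and the mean level of abd-A itself was 1.54 TPM in DomKD and 1.77 TPM in Ctrl embryos. pb held 6.71%, 11.1%, 4.16% and 2.83% in DomKD, against 1.51%, 1.77% and 2.50% in Ctrl embryos, without overlap but on 4 to 14 counts per library. Relative to Antp, abd-A had a TPM ratio of 1.29, 0.758, 1.30 and 0.822 in DomKD, against 0.314, 0.302 and 0.553 in Ctrl embryos, without overlap. Relative to Ubx its ratio was 1.82, 1.09, 2.08 and 2.35 in DomKD, against 0.782, 0.556 and 1.27 in Ctrl embryos, which overlap. These shares and ratios were chosen after the values had been seen and are given without a test. The bithorax complex genes together made up 42.9%, 29.3%, 44.4% and 32.5% of the sum in DomKD, against 25.6%, 26.4% and 30.3% in Ctrl embryos, which overlap. Among these genes only abd-A had a higher mean share in DomKD, 23.2% against 11.8% in Ctrl embryos. Ubx had 12.9% against 14% and Abd-B 1.23% against 1.69%.

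**Figure D2:**
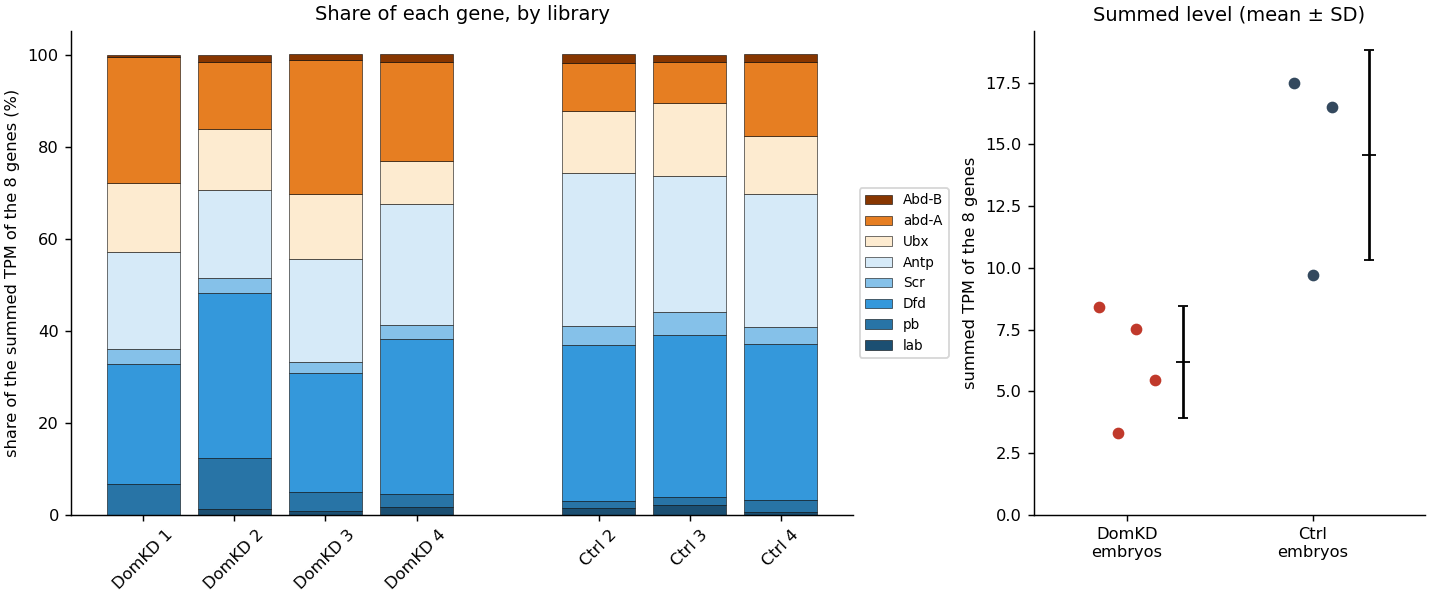
Left, share of each homeotic gene in the summed TPM of the 8, in percent, 1 bar per library with DomKD replicates 1 to 4 left of Ctrl replicates 2 to 4, stacked from lab at the bottom to Abd-B at the top. Right, the summed TPM per library with mean ± SD; DomKD sums run from 3.33 to 8.41 TPM and Ctrl sums from 9.70 to 17.5 TPM, and abd-A takes 14.5% to 29.1% of the sum in DomKD and 8.92% to 16.0% in Ctrl embryos.

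Libraries of the same group differed in their homeotic level. The mean log2 CPM over the 6 tested homeotic genes was 1.10, -0.106, 1.09 and 0.60 in DomKD replicates 1 to 4, against 2.25, 1.51 and 2.26 in Ctrl replicates 2 to 4. DomKD replicate 2 and Ctrl replicate 3 were thus the lowest of their groups in the mean. Not every gene followed it: in DomKD, Abd-B and lab were lowest in replicate 1 and pb in replicate 4, and in Ctrl embryos lab was lowest in replicate 4. Over the 7 embryo libraries, the 5 genes whose log2 CPM followed this mean most closely, among 6514 with a mean of at least 50 counts, were blot (Pearson r = 0.997), Fign (0.994), side-V (0.994), CadN (0.993) and 5-HT2A (0.988). CadN encodes the neural cadherin, a cell adhesion protein, and 5-HT2A a serotonin receptor. They are the highest of very many correlations over 7 libraries in 2 groups, and are given as a description only. The homeotic mean was lower in every DomKD library than in every Ctrl library. Genes picked for following it thus had to be lower in DomKD, and their tests are no separate support. Of these 5 genes, side-V fell by 2.04, CadN by 1.65, 5-HT2A by 1.34 and blot by 0.70 on the log2 scale (adjusted p = 0.00645, 0.00635, 0.0145 and 0.00918), and Fign had a log2 fold change of -0.25 (adjusted p = 0.0907). Without Ctrl replicate 4, 5-HT2A had an adjusted p of 0.053.

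Genes that lie among the homeotic genes did not share their decrease as a block. The Antennapedia complex holds 4 further homeobox genes with other functions: bcd, the maternal head determinant, zen and zen2, of which zen patterns the dorsal side, and the pair-rule gene ftz. None of the 4 fell (0 at an unadjusted p under 0.05 and 0 by DESeq2), and their median log2 fold change was 0.286. zen, 1.33 kb long, had 303 ± 35.8 CPM in DomKD and 183 ± 24.6 CPM in Ctrl embryos (SD, n = 4 and 3), and rose by 0.73 on the log2 scale (SE 0.12, adjusted p = 0.00198) with every DomKD library above every Ctrl library. For zen2, bcd and ftz the log2 fold changes were 0.27, 0.30 and 0.22 (adjusted p = 0.136, 0.114 and 0.222). ftz lies between Scr and Antp, both of which fell, and had 46.3 ± 4.45 CPM in DomKD and 39.8 ± 6.41 CPM in Ctrl embryos.

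Of the 39 genes between lab and Antp that are not homeotic, 12 were tested, 3 were lower and 2 higher, against 15.5% and 10.6% over all genes, and 19 had no library above 3 counts. The lower ones were lncRNA:CR44930 (log2 fold change -1.23, SE 0.26, adjusted p = 0.00857) and a pair of 7SL RNA genes, 7SLRNA:CR42652 (-1.79, adjusted p = 0.0154) and 7SLRNA:CR32864 (-2.22, adjusted p = 0.0241). The 7SL genes are near-identical copies whose reads the counting may split, their groups overlapped, and they are uncertain. They missed the threshold without Ctrl replicate 3 or Ctrl replicate 4 (adjusted p from 0.0607 to 0.094), and 7SLRNA:CR32864 also without DomKD replicate 2 or 3. Beside zen, the higher one was lncRNA:CR42651, a transcript that contains the microRNA gene mir-10, with 0.66 (SE 0.20, adjusted p = 0.0403) and overlapping groups. It missed the threshold without any 1 of 5 of the 7 libraries (all but Ctrl replicate 4 and DomKD replicate 4).

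In the bithorax complex, 12 genes that are not homeotic lie between Ubx and Abd-B. Of these 5 were tested and 0 were called, with 0 at an unadjusted p under 0.05 and 0 by DESeq2, while 6 had no library above 3 counts. lncRNA:bxd, a non-coding transcript of the regulatory region upstream of Ubx, had 22.0 ± 6.30 CPM in DomKD and 23.8 ± 9.12 CPM in Ctrl embryos, a log2 fold change of -0.11 (SE 0.27, adjusted p = 0.791) whose sign turned to 0.0641 when scaled on genes without maternal deposit, to 0.239 without Ctrl replicate 4 and to 0.0257 without DomKD replicate 4. lncRNA:iab8 and lncRNA:iab4, transcribed from opposite strands between abd-A and Abd-B, had log2 fold changes of -0.20 and 0.37 (adjusted p = 0.632 and 0.437). They share 1274 nt of exon, and since the strand setting of the counting is not spelled out in the sources used here, their reads may not be told apart. The 4 microRNA genes of the complexes, mir-10, mir-993, mir-iab-4 and mir-iab-8, had 0 counts in every embryo library, in a library type that is not made for small RNA. Each also lies wholly within an exon of a counted transcript, on the opposite strand for mir-iab-8 and on the same strand for the others. Reads there may not have been counted, so the 0 does not show that these genes were silent.

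**Figure D3:**
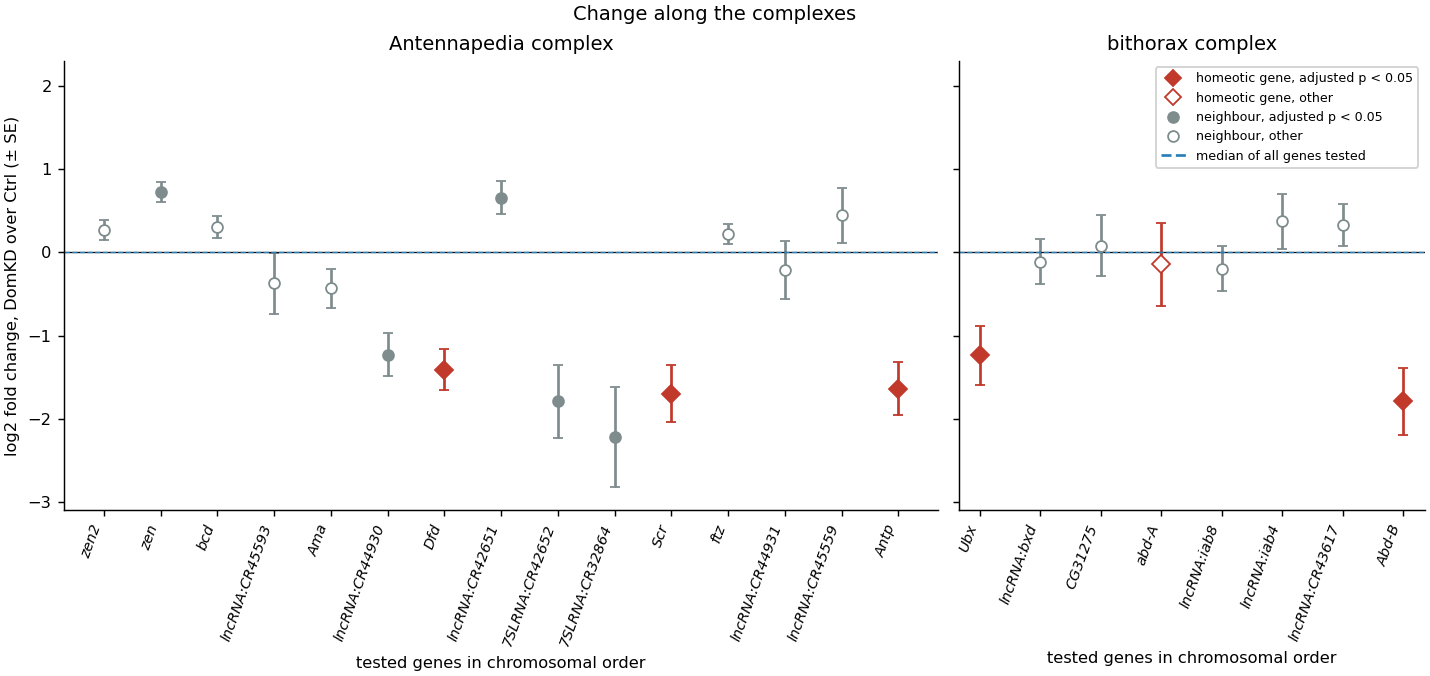
Log2 fold change of DomKD over Ctrl embryos, ± SE, of every tested gene of each complex in chromosomal order; diamonds are homeotic genes, circles their neighbours, filled symbols have an adjusted p under 0.05, and the dashed line is the median of all genes tested (0.00278). Dfd, Scr, Antp, Ubx and Abd-B lie between -1.79 and -1.24, abd-A at -0.14, and the other homeobox genes between 0.22 and 0.73.

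Early positional regulators, mostly gap genes, set where homeotic genes are first transcribed. Of the 8 listed (hb, Kr, kni, knrl, gt, tll, hkb, cad), all were tested, 5 were higher and 1 lower in DomKD, against 10.6% higher and 15.5% lower over all genes, and the median log2 fold change was 0.43. The higher ones changed by under 2-fold, and their values were seen before they were named: hb (0.46), kni (0.53), tll (0.59), hkb (0.57) and cad (0.40), with adjusted p from 0.00167 to 0.0387. With library size alone kni, hkb and cad did not pass the threshold (adjusted p = 0.0522, 0.0546 and 0.0744). Leaving out 1 library kept hb and tll past the threshold each time, while kni, hkb and cad each missed it for 5 of the 7 libraries (kni and hkb for all but DomKD replicate 4 and Ctrl replicate 4, cad for all but DomKD replicate 1 and Ctrl replicate 2). Kr and gt had values of 0.22 and 0.21 (adjusted p = 0.406 and 0.114). The lower one was knrl, a relative of kni next to it in the genome and much longer, with 11.8 ± 5.58 CPM in DomKD and 26.7 ± 8.25 CPM in Ctrl embryos (log2 fold change -1.19, SE 0.35, adjusted p = 0.033). Without DomKD replicate 4, Ctrl replicate 2 or Ctrl replicate 4 knrl did not pass (adjusted p = 0.069, 0.0516 and 0.133).

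Cofactors help homeotic proteins choose their targets. Of 7 listed, 6 were tested, 1 was lower and 0 higher, a share near the 15.5% lower over all genes, with a median log2 fold change of -0.24. At an unadjusted p under 0.05 2 were lower and 0 higher, and by DESeq2 1 was lower and 0 higher. The lower one was tsh, a zinc finger gene that acts with homeotic genes in the trunk, at 7.77 ± 1.52 CPM in DomKD and 26.1 ± 4.71 CPM in Ctrl embryos (log2 fold change -1.75, SE 0.18, adjusted p = 0.000298), with no overlap. The partners exd and hth, which bind DNA together with homeotic proteins, had log2 fold changes of -0.02 and -0.41 (adjusted p = 0.866 and 0.249).

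Of 21 Polycomb group genes, which keep homeotic genes silent, all were tested, 5 were lower and 0 higher by edgeR, against 15.5% lower and 10.6% higher over all genes, with a median of -0.225. At an unadjusted p under 0.05, and also by DESeq2, 6 were lower and 0 higher. Those with at least a 2-fold decrease were caly, which encodes a subunit of the deubiquitinase PR-DUB (log2 fold change -1.95, SE 0.21, adjusted p = 0.000314), E(z), the H3K27 methyltransferase (-1.82, SE 0.16, adjusted p = 0.000143), and Asx, the partner of caly (-1.07, SE 0.15, adjusted p = 0.00113). E(z) had 6.61 ± 0.847 CPM in DomKD and 23.3 ± 3.95 CPM in Ctrl embryos. All of these were maternally deposited, unlike the homeotic genes, and caly and E(z) share 216 and 38 nt of exon with a gene on the opposite strand. Of 17 Trithorax group genes, which keep homeotic genes active, 3 were lower and 0 higher, a share near the 15.5% lower over all genes, with a median of -0.04. The counts were the same at an unadjusted p under 0.05 and by DESeq2. Without Ctrl replicate 4 only kto, 1 of the 3, stayed past the threshold, since trx and ash1 had adjusted p of 0.0636 and 0.0852, and ash1 also missed it when scaled on genes without maternal deposit (0.251). The one past 2-fold was kto, a Mediator subunit, at 10.3 ± 0.943 CPM in DomKD and 28.2 ± 4.01 CPM in Ctrl embryos (log2 fold change -1.46, SE 0.13, adjusted p = 0.00019).

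Genes known as targets of homeotic proteins later in development went both ways. Of 10 listed and tested, 3 were lower and 2 higher, against 15.5% and 10.6% over all genes, with a median of 0.20. Of the 2 higher ones, dpp missed the threshold with library size alone (adjusted p = 0.0593) and without any 1 of 5 of the 7 libraries (all but DomKD replicate 4 and Ctrl replicate 4, adjusted p up to 0.116), which leaves upd1. Of the 3 lower ones, wg (log2 fold change -0.70, adjusted p = 0.0137) missed the threshold when scaled on genes without maternal deposit (adjusted p = 0.0815). With any 1 library left out wg passed, with an adjusted p up to 0.0479. Dll, the limb gene that Ubx and abd-A repress in the abdomen, had 1.38 ± 0.581 CPM in DomKD and 4.82 ± 1.71 CPM in Ctrl embryos (log2 fold change -1.82, SE 0.37, adjusted p = 0.00667). ct, a homeobox gene of sensory organs and spiracles, had 0.301 ± 0.214 CPM in DomKD and 1.40 ± 0.475 CPM in Ctrl embryos (-2.24, SE 0.50, adjusted p = 0.0101). It passed the filter through the Ctrl embryos alone, with 7, 1, 4 and 3 counts in DomKD and 26, 13 and 23 counts in Ctrl embryos, and was below it in 2 of the 7 fits with 1 library left out.

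**Figure D4:**
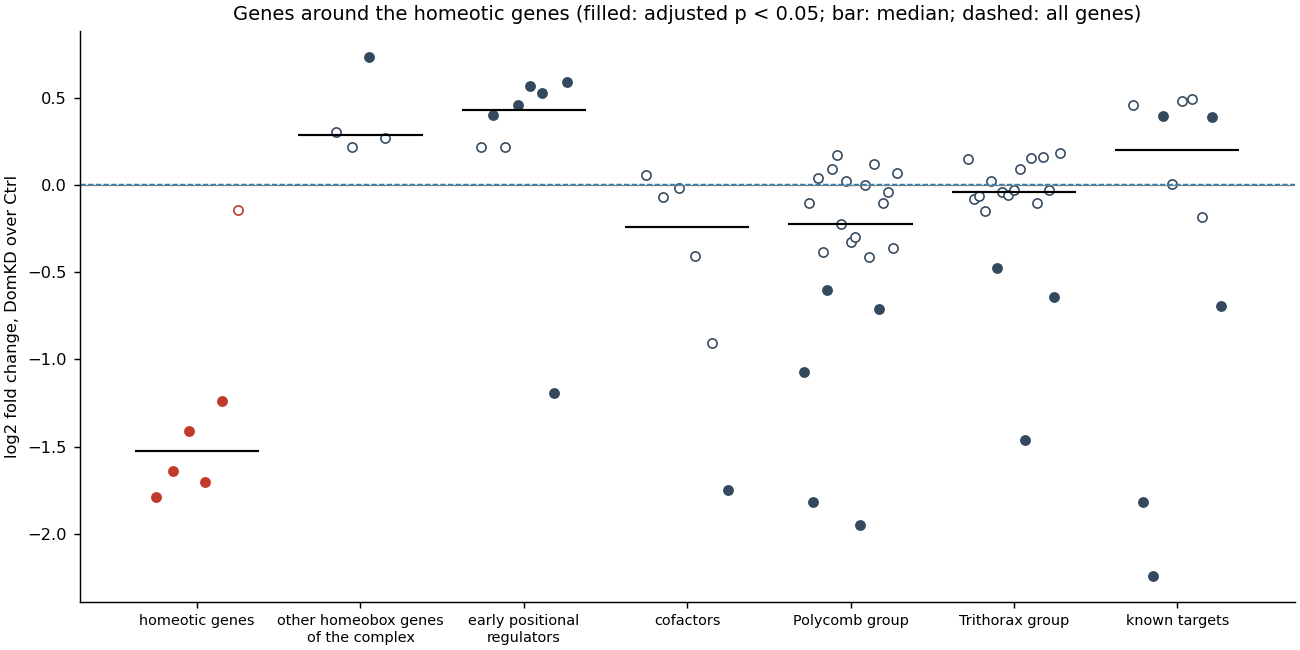
Log2 fold change of DomKD over Ctrl embryos for each tested gene of the homeotic genes and of the 6 lists around them; filled points have an adjusted p under 0.05, the black bar is the list's median and the dashed line the median of all genes (0.00278). The median is -1.52 for the 6 homeotic genes tested, 0.43 for the early positional regulators and between -0.24 and 0.29 for the other lists. Of the homeotic genes tested, Scr and Abd-B passed the filter through the Ctrl embryos alone.

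The homeotic genes have few counts and most are long, and genes of like kind were often lower too. Among tested genes without maternal deposit, 27.9% of the 1135 with a mean of 10 to 150 counts, the range that holds all 6 tested homeotic genes, were lower and their median log2 fold change was -0.301. Of the 318 such genes with more counts 16.4% were lower, with a median of 0.0951. By span, 28.1% of the 430 genes of 10 kb or more were lower (median -0.234), 33.2% of the 190 genes of 5 to 10 kb (-0.335) and 22.0% of the 820 genes under 5 kb (-0.089). With the mean count held at 10 to 150, 28.3% of the genes of 10 kb or more and 25.6% of those under 5 kb were lower. These limits were set after the values had been seen. The part of gene length and of level in the homeotic genes' decrease was not tested further.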

How the data were processed

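RNA-seq libraries (TruSeq Stranded Total RNA, per the labels) of 4 DomKD and 3 Ctrl stage 5 embryo samples and 4 Ctrl egg samples were analysed. The authors trimmed and mapped reads to dm6 with snakePipes 2.0.2 and deposited raw counts per gene of Ensembl release 96, made with featureCounts according to the submitters' processing notes. The methods state that workflow's defaults apart from trimming. Which aligner, strand setting and handling of reads with several matches these were is not spelled out in the sources used here. Of the sample columns, 1 matched no listed sample and was not used.

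Counts were tested with edgeR 4.0.16 in R 4.3.3 (quasi-likelihood, TMM, Benjamini-Hochberg over all genes tested, threshold 0.05) with condition as the only term, after removing genes that averaged under 10 counts over the libraries compared. The SE is the log2 fold change divided by the square root of F. The interval of a fold is nominally 95%, from this SE and a normal approximation, which makes it too narrow with so few libraries. DESeq2 1.42.0 was an alternative, with other scalings, filters, a replicate block and each library left out. The code was tested on simulated data. TPM came from the deposited counts and exon lengths. With 11809453 to 17700171 counts per library, a gene near 10 counts carries a large counting error, and intervals of summed counts cover counting error only. Names and dm6 positions are from Ensembl release 115, which holds 17626 of the 17753 identifiers. No genome sequence was used.

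The homeotic genes and gene lists were chosen with earlier results of these data known. Named by rule were the homeotic genes, genes of the complexes that are listed or called, from each further list up to 4 called genes per direction with a fold change of at least 2, and the 5 genes most correlated with the homeotic mean; others are said to be named after their values were seen, or complete a list's account. Nothing says that the samples of a group came from separate cultures, so p-values measure the spread between these samples, which may be technical. Plots used matplotlib 3.10.9 under Python 3.11.15.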

Additional observations from a re-analysis of the deposited data

Results flagged for a closer look

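1 library stood apart from the rest of its group. lncRNA:CR42651, the transcript between Dfd and Scr that contains mir-10, had 28.5 CPM in DomKD replicate 4, against 40.6 to 42.8 CPM in the other 3 DomKD libraries, a gap above Dixon's 95% limit for 4 samples. It was the only such case among 67 groups of 4 values examined, fewer than the share of about 5% that chance gives.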

How the results depend on the processing

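Dfd, Antp and Scr were lower in DomKD than in Ctrl embryos at the threshold in each of the 14, 15 and 13 alternatives in which they were tested, Abd-B in 12 of 13 and Ubx in 10 of 14, and abd-A in 0 of 14. Of the 8 homeotic genes 5 were lower under edgeR's RLE factors, library size alone, scaling on genes without maternal deposit, DESeq2, no filter and a fit of all 11 libraries. Only 1 gene, Antp, was tested and lower with a filter at a mean of 100 counts, which removes the others. With 1 library left out 2 to 5 were lower (2 without Ctrl replicate 2). Of 674 values of 46 named genes under the alternatives, 583 kept direction and side of the threshold, 82 fell short of it, 3 newly passed it and 6 reversed. The reversed ones were abd-A (0.0212) and lncRNA:bxd (0.0641) when scaled on genes without maternal deposit, and the same genes among fits with 1 library left out, which ran from -0.46 to 0.259 for abd-A and from -0.293 to 0.239 for lncRNA:bxd.

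Over all genes, 1195 were lower and 820 higher in DomKD. There were 668 lower when scaled on genes without maternal deposit, 694 lower and 507 higher with the filter at 100 counts, which tests fewer genes, 1301 higher in the fit of all 11 libraries, and 483 to 748 higher with 1 library left out. Against eggs, 8 homeotic genes were higher in Ctrl and 7 in DomKD embryos without the filter, and 1 and 0 with the filter at 100 counts (none of the 8 was tested in DomKD). Scaled on genes without maternal deposit, 834 genes were higher in Ctrl embryos and 744 in DomKD embryos than in eggs, where all genes had a median log2 fold change of -1.01 and -0.935. No homeotic gene was maternal at a limit of 1 TPM. Order along the complexes had a rho of 0.476 with CPM. The cause of these moves was not tested.

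No steady sign of pairing by replicate number was seen: the deviations of DomKD and Ctrl libraries of the same number correlated at 0.114, 0.0046 and -0.50 for numbers 2, 3 and 4. With so few libraries these values cannot show whether samples of the same number were collected together. With the replicate number as a block, which drops DomKD replicate 1, 783 genes were lower and 438 higher, and 4 homeotic genes were lower, with Abd-B at -1.60 (adjusted p = 0.0583).

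Counts limit the rest. lab and pb averaged under 10 counts per embryo library, and Scr and Abd-B had 22 counts each over the 4 DomKD libraries.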
